A study of Mus musculus with 9 samples.

Results

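Heat shock chaperones hold other proteins in a folded or foldable state, and 10 genes of this system are described here, of 32285 mouse genes in the deposited tables: Hspa1a, Hspa1b, Dnajb1, Hsph1, Hspa8, Hsp90aa1, Hspe1, Hspd1, Hspb1 and Hsf1. They were chosen by symbol, after Hspa1a and Hspa1b had led the genes of cells taken for macrophages in 1 tumor of these same data, so the height of those genes in that tumor is given as a description, with no test. The series holds single-cell RNA-seq from the brains or tumors of 9 mice aged 6 to 8 weeks, made with 10x Genomics 5′ gene expression chemistry. The 5 tumor-bearing mice had the genotype NestinCreERT2;Fus1 and carried EP ZFTA-RELA, a mouse ependymoma in which a Nestin-driven, inducible Cre switches on the ZFTA-RELA fusion gene. The 4 control mice had the genotype NestinCreERT2;TdT, so both groups carried the Cre and the controls carried a TdTomato reporter with no fusion. The tissue was cut up, digested, spun through Percoll and sorted with the DNA dye DAPI and an antibody to the red-cell marker Ter119, so every level below is that of cells that had been through digestion and sorting.

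The cytosolic core of the system is HSP70: Hspa1a and Hspa1b are near-identical genes that stress switches on, and Hspa8 is the constitutive relative. Dnajb1 is a J-domain partner that loads clients onto HSP70, Hsph1 is its nucleotide exchange factor, Hsp90aa1 is the inducible cytosolic HSP90, and Hspb1 is a small heat shock protein that keeps unfolded proteins from clumping. Hspd1 and Hspe1 form the chaperonin of the mitochondrial matrix. Hsf1 is the transcription factor that, released by unfolded protein, binds repeats of the 5-letter unit nGAAn in front of many of these genes, and it is controlled largely at the level of the protein. Dissociation of tissue is itself known to switch on both heat shock genes and immediate early genes such as Fos and Jun.

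RefSeq start-site windows were found for 7 of the 10 genes, and the 250 bases before the start are shown for 6 of them so that the Hsf1 unit can be looked for. Hspd1 is not among them, since its run of units lies in the Hspe1 window shown. Capitals mark adjacent inverted units, GAANNTTC or TTCNNGAA on either strand, or the longer run of alternating units that contains them. All coordinates are on GRCm38.p6, and every sequence runs 5′ to 3′ on the strand of its gene.
Hspa1a, chr17:34972157-34972406, minus strand: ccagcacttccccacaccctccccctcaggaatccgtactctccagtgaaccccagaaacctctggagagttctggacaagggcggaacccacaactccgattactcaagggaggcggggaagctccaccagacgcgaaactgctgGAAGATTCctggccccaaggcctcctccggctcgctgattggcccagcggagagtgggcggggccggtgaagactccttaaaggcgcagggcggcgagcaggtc
Hspa1b, chr17:34959239-34959488, minus strand: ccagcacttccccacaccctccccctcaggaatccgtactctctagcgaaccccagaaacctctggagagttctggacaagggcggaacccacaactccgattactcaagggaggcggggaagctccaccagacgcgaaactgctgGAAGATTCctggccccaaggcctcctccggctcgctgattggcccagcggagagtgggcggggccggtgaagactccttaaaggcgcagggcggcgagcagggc
Hspb1, chr5:135887669-135887918, plus strand: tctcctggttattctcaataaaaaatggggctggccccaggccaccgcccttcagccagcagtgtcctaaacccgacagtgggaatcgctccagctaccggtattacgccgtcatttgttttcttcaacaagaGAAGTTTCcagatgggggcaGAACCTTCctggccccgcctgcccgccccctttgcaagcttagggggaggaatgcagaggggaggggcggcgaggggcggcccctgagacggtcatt
Hsph1, chr5:149636337-149636586, minus strand: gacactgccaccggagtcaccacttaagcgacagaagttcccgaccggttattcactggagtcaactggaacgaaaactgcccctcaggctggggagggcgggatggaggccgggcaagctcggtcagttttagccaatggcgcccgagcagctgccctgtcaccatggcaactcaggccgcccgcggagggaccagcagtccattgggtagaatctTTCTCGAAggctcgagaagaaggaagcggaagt
Hspe1, chr1:55087898-55088147, plus strand: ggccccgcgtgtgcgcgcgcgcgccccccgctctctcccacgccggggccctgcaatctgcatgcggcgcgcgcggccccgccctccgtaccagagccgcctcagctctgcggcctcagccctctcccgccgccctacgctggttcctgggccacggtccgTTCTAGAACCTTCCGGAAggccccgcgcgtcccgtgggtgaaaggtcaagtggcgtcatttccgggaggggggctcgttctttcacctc
Dnajb1, chr8:83607925-83608174, plus strand: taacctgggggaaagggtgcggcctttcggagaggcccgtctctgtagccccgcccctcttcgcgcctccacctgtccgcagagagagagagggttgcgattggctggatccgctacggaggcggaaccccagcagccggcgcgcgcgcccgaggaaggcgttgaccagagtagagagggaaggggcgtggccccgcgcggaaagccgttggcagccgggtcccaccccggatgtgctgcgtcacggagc

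Some genes have more than 1 start site, and 7 of the 10 windows of these 7 genes held a pair of units, against 12.8% of 32851 RefSeq windows of the same length. Of the 10, 2 held at least 3 units in a row, against 0.466%. They belong to Hspe1 and Hspd1, which start back to back on opposite strands of chromosome 1, so a single run lies in both windows. Both windows of Hsph1 overlap and hold the same pair, and those of Hspa1a and Hspa1b are near-identical. The 7 windows are therefore not 7 separate sites. The pair began 104 bases before the start in both Hspa1a and Hspa1b, whose windows shared 247 of 250 bases and differed by C44T, T47C and T249G, counted from 1 at the 5′ end with the Hspa1a base first. Neither Dnajb1 window held the letters searched. Because the transcripts are also alike, 50.9% of the 90-base stretches of Hspa1a and 52.3% of those of Hspa1b occur in another gene. Reads from such stretches cannot be placed on 1 gene by their sequence. The split between Hspa1a and Hspa1b, and the total of the pair, are therefore uncertain. Both genes lie on chromosome 17, Hspa1a at 34969190-34972156 and Hspa1b at 34956436-34959238 on mm10, so the pair is also counted together below. The other members with over 40% of such shared stretches were Hspa8, at 64.7%, Hsp90aa1, at 50%, and Hspb1, at 44.6%.

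The analysis kept 20408 cells of the controls and 15894 of the tumors, with 101057563 to 178074108 UMIs deposited for each control and 14967428 to 69391807 for each tumor. Cells were put into 15 gates by their marker genes, and 86.0% of control cells and 58.1% of tumor cells passed none. Tumor replicate 3 stood apart in the genes described here and had the fewest UMIs, so tests of the members are also given without it. Much of the RNA in the gated control cells was estimated to be free RNA of the suspension. The share was the level of 11 neuronal marker genes in the gated cells over that in the 3000 smallest barcodes of each library. It takes every neuronal UMI in a gated cell as free RNA. The share was 71.0 to 84.8% in microglia-gated cells of controls and 5.49 to 29.7% in those of tumors. The markers behind it summed to 5737 to 6770 UMIs per 1000000 of the summed UMIs (CPM) in microglia-gated control cells and 79.7 to 1658 CPM in the tumors', a gap that lies beside every control value below. Any 2 libraries shared 19 to 45 of the barcodes considered, leaving out control replicate 4, whose barcode list is incomplete.

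Over all kept cells of a mouse, both inducible HSP70 genes were higher in the tumors, and the size of the gap was set by tumor replicate 3. Hspa1a was at 3.48, 4.12, 3.78 and 2.99 CPM in control replicates 1 to 4. The tumors, replicates 1 to 5, held 13.9, 124, 923, 48.3 and 10.6 CPM. Every tumor lay above every control, and tumor replicate 3 lay far above the other tumors. Hspa1b was at 3.12, 2.27, 1.77 and 2.35 CPM in the controls and at 5.41, 62.7, 910, 19.0 and 4.58 CPM in the tumors. The groups again did not overlap, although tumor replicates 1 and 5 stood only just above the controls. In such sums, fewer cells of a type and less RNA per cell cannot be told apart. Without tumor replicate 3, Hspa1a averaged 49.2 ± 52.7 CPM (SD, n = 4 tumors) and rose by 4.21 ± 0.85 on the log2 scale (SE; adjusted p = 0.0032, edgeR's quasi-likelihood test), and Hspa1b averaged 22.9 ± 27.3 CPM and rose by 3.71 ± 0.90 (adjusted p = 0.0074). In that fit 32.7% of 17417 genes tested were higher in the tumors and 29.4% were lower.

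**Figure D1:**
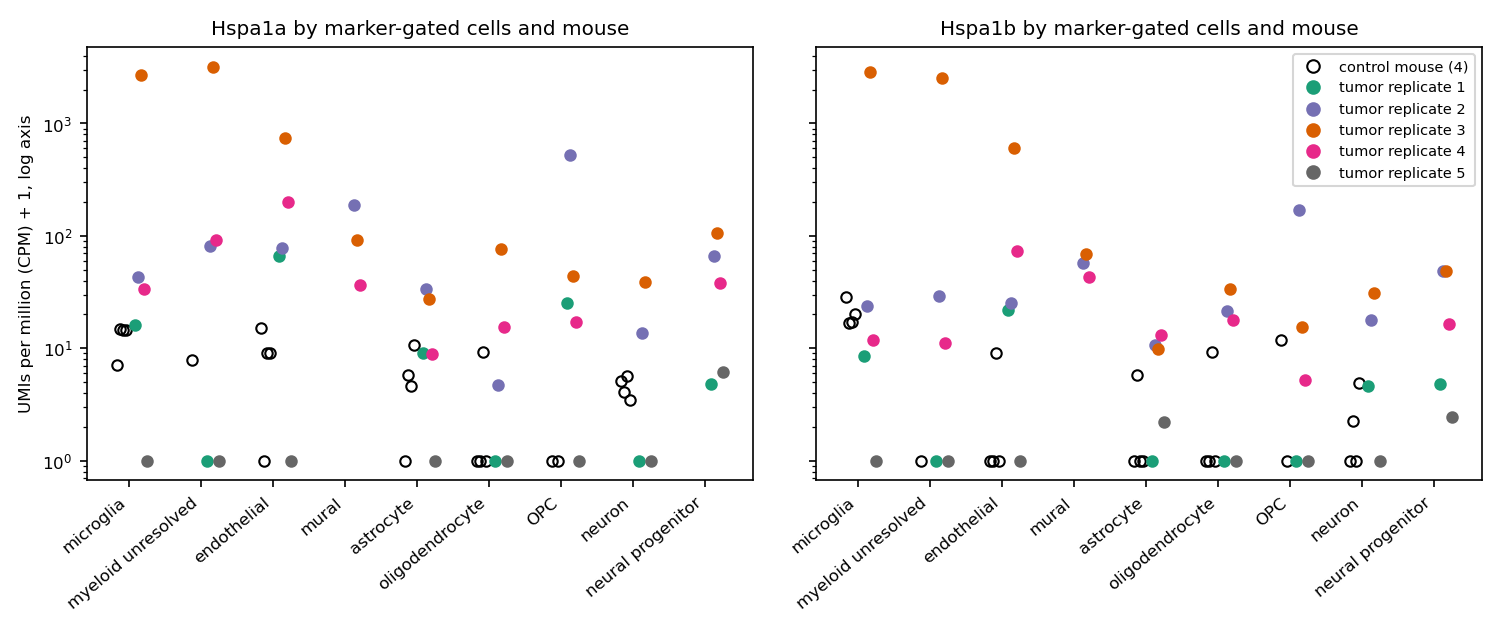
CPM plus 1 of Hspa1a (left) and Hspa1b (right) on a log axis, 1 point per mouse, in each gate where that mouse had at least 20 cells (open circles, controls; filled, tumors). Tumor replicate 3 stands above the other tumors in the microglia gate, at 2688 and 2863 CPM, while tumor replicates 1 and 5 stay near the controls.

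In microglia-gated cells, taken by genes of brain-resident macrophages such as P2ry12 and Tmem119, Hspa1a was at 6.16, 13.9, 13.6 and 13.6 CPM in the controls and at 15.2, 41.7, 2688, 33.0 and 0 CPM in tumor replicates 1 to 5. Hspa1b was at 27.7, 15.6, 16.3 and 19.4 CPM in the controls and at 7.62, 22.7, 2863, 10.8 and 0 CPM in the tumors. In tumor replicate 3 the genes were as high in 78 myeloid cells that passed neither the microglia nor the macrophage gate, at 3198 CPM of Hspa1a and 2537 CPM of Hspa1b. Its 12 macrophage-gated cells held 3381 and 2728 CPM, and 10 cells gated as T or NK cells held 793 and 1450 CPM. Macrophage-gated cells of tumor replicates 1, 2, 4 and 5 gave 6, 124, 53 and 36 UMIs of the pair, in 11, 108, 62 and 18 cells. A single tumor was high in microglia-gated cells, and another gave no UMI of either gene from 274 cells, which allows a share of up to 1.09% of cells with one. With tumor replicate 3 left out the group means were 11.8 ± 3.77 and 22.5 ± 18.6 CPM for Hspa1a (SD, n = 4 each; two-sided exact permutation p = 0.543, adjusted over 6 such tests 0.543) and 19.8 ± 5.55 and 10.3 ± 9.43 CPM for Hspa1b (exact permutation p = 0.143, adjusted 0.286; the smallest p that 4 against 4 allows is 0.0286). No difference between groups was shown by these tests, which does not make the groups alike.

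Endothelial-gated cells, chosen by genes of vessel lining such as Cldn5 and Pecam1, held more of the pair in 4 tumors than in any control. Hspa1a was at 14.0, 0, 8.07 and 8.08 CPM in the controls and at 65.5, 76.7, 740, 199.6 and 0 CPM in the tumors. Hspa1b was at 0, 0, 8.07 and 0 CPM in the controls and at 21.0, 24.2, 603, 72.3 and 0 CPM in the tumors. Tumor replicates 1 to 4 thus lay above every control, while replicate 5 gave no UMI of either gene from 104 cells, a limit of 2.88% of cells. The controls' values rest on 1, 0, 2 and 1 UMIs of the pair in 29, 28, 25 and 23 cells. For control replicate 2, with none, the limit was 10.7% of cells, so low levels in controls could be missed. In replicate 2 a single cell held 42 of the gate's 75 UMIs of the pair. Hspa1b of that gate also lay below the 29.6 CPM in the smallest barcodes of the same mouse. Without replicate 3, Hspa1a averaged 7.54 ± 5.76 CPM in controls and 85.4 ± 83.3 CPM in tumors (SD, n = 4 each; exact permutation p = 0.143, adjusted 0.286), and Hspa1b gave the same p with 2.02 ± 4.03 and 29.4 ± 30.6 CPM. Astrocyte-gated tumor cells stayed low, with 8.15, 32.5, 26.4, 7.84 and 0 CPM of Hspa1a. In neural-progenitor-gated cells, a gate that cannot tell tumor cells from normal progenitors, Hspa1a was at 3.80, 65.9, 104, 36.9 and 5.14 CPM.

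Ordered by the median over tumors, in the 8 gates with enough cells in at least 4 of them, Hspa1a was highest in the myeloid cells that could not be resolved, at 79.7 CPM, followed by endothelial (76.7), neural progenitor (36.9), microglia (33.0), oligodendrocyte precursor (24.2), astrocyte (8.15), neuron (6.28) and oligodendrocyte (3.76) gates. Neighbors in this order overlapped widely between mice: the microglia gate alone ran from 0 to 2688 CPM and the endothelial gate from 0 to 740 CPM. In the oligodendrocyte precursors tumor replicate 2 was the highest, at 522 CPM of Hspa1a and 170 CPM of Hspa1b. That level came mostly from 1 cell, which held 193 of the 232 UMIs of the pair, and 6 of the 54 cells had any.

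Counted per cell, the UMIs of the pair were uneven: a small number of cells held many copies. In microglia-gated cells of controls, 6.59 to 8.74% had at least 1 UMI of Hspa1a or Hspa1b and none had 10. In tumor replicate 3, 39.9% had at least 1 (95% exact binomial interval 34.0 to 46.1%, 268 cells), 28.0% had at least 10 and 13.8% at least 100, and the highest cell had 521. The other tumors' shares with at least 1 were 3.77, 9.92, 15.6 and 0% for replicates 1, 2, 4 and 5. After cells were thinned to 2000 UMIs and shallower ones left out, tumor replicate 3 stood at 38.5% and replicate 4 at 8.48%, against 5.43 to 8.77% in controls. Cells left out numbered 110, 0, 0 and 0 in control replicates 1 to 4 and 61, 1, 47, 0 and 4 in tumor replicates 1 to 5. Astrocyte-gated cells of the same tumor replicate 3, from the same suspension, reached 11.0% with at least 1 UMI (4.65% thinned), and none of them had more than 1. Endothelial-gated cells with at least 1 UMI made up 12.9, 8.78, 25.4, 44.0 and 0% in tumor replicates 1 to 5, and 11.0, 4.90, 25.0, 24.8 and 0% after thinning, which left out 65, 5, 69, 0 and 1 of them. The controls stood at 0 to 8.00% both before and after thinning, with 5 cells of control replicate 1 left out. These intervals and limits cover counting error only. Free RNA held the pair as well. The smallest barcodes had 35.3 CPM of Hspa1a and 29.6 CPM of Hspa1b in tumor replicate 2, and 89.8 and 69.5 CPM in replicate 3. In tumor replicates 1, 4 and 5 they had 3.99, 14.5 and 6.64 CPM of Hspa1a. The part of free RNA in the shares with at least 1 UMI was not tested.

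**Figure D2:**
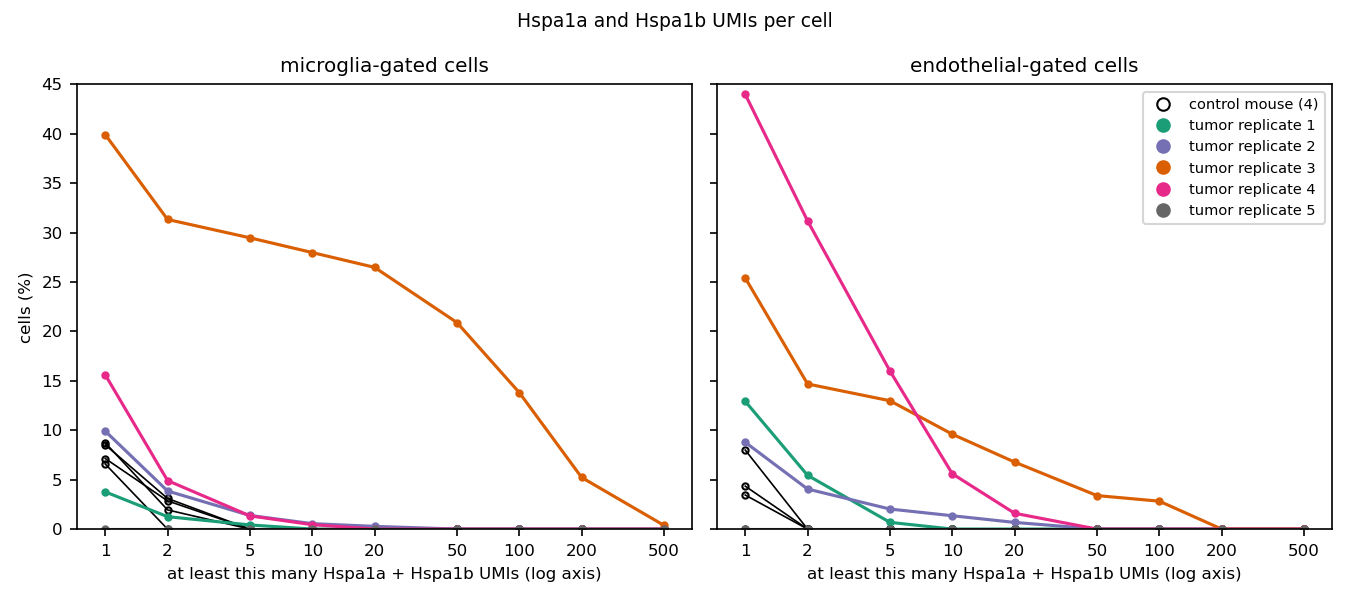
Percentage of microglia-gated (left) and endothelial-gated (right) cells with at least the number of Hspa1a and Hspa1b UMIs on the log x axis, 1 line per mouse (black, controls). Only tumor replicate 3 has microglia-gated cells at 100 UMIs or more, 13.8% of its 268.

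Cells with at least 10 UMIs of the pair were counted over all gates. There were none in the 4 controls or in tumor replicate 1, against 63 in tumor replicate 2, 121 in replicate 3, 44 in replicate 4 and 8 in replicate 5. In replicate 3, 75 of the 121 were microglia-gated, 14 were myeloid cells of unresolved kind, 3 were macrophage-gated, 17 were endothelial-gated and 4 had no gate. The name under which these cells had first been noticed, macrophages, is not the gate that most of them passed, which was the microglia gate. Within the high microglia-gated cells the 6 core microglia genes summed to 6717 CPM, against 6473 CPM in the cells of that gate with no Hspa1 UMI, with 2 of the 6 higher. The list of 12 macrophage markers summed to 22010 against 7683 CPM, with 8 of the 12 higher in the high cells and Arg1 and Fn1 at 0, most of it Apoe at 19754 against 6409 CPM, a lipid carrier that activated microglia also make. In the other tumors most of the high cells passed no gate: 45 of 63 in replicate 2, 29 of 44 in replicate 4 and 7 of 8 in replicate 5. Of all Hspa1a and Hspa1b UMIs in replicate 3, 73.0% lay in the microglia gate, while 68.2% in replicate 2 and 71.2% in replicate 4 lay in cells without a gate.

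What else the high cells carried was read by setting them against the cells of the same mouse and gate with no UMI of the pair, as a description of single mice. The 75 high microglia-gated cells of tumor replicate 3 held more RNA than the 161 others, with medians of 9277 and 3194 UMIs, and a lower mitochondrial share, 2.31 against 3.56%. Dnajb1 was at 813 CPM in the high cells and 23.4 CPM in the others, 34.7-fold higher. Hspb1 was at 339 against 12.3 CPM, 27.5-fold. Hsph1 was 9.60-fold, Hsp90aa1 8.23-fold, Hspa8 2.63-fold, Hspd1 2.59-fold and Hspe1 1.80-fold higher, so the cytosolic partners led and the mitochondrial pair came behind. Hsf1, the factor itself, was at 21.5 against 19.7 CPM, a ratio of 1.09. Other stress genes outside the 10 moved as well: Dnaja1, another J-domain partner, was 5.90-fold higher and Bag3, which couples HSP70 to autophagy, 6.16-fold, whereas Hspa4, an exchange factor related to Hsph1, was at 0.559 and St13, an HSP70-HSP90 adaptor, at 0.676 of the others' level. Of the 24 further co-chaperone genes 12 were higher in the high cells. All 10 immediate early genes were higher there, at a sum of 16952 against 512 CPM, with Fos 235-fold, Dusp1 73.7-fold and Jun 28.9-fold, and their part in the chaperone levels was not tested. Among cells with at least 5000 UMIs, 66 were high and 53 had none, with medians of 9664 and 8563 UMIs. There Dnajb1 was 36.5-fold, Hsph1 8.85-fold and Hsp90aa1 7.33-fold higher, so the first ratio was larger and the others smaller than over all depths. The part of depth in the ratios was not tested.

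**Figure D3:**
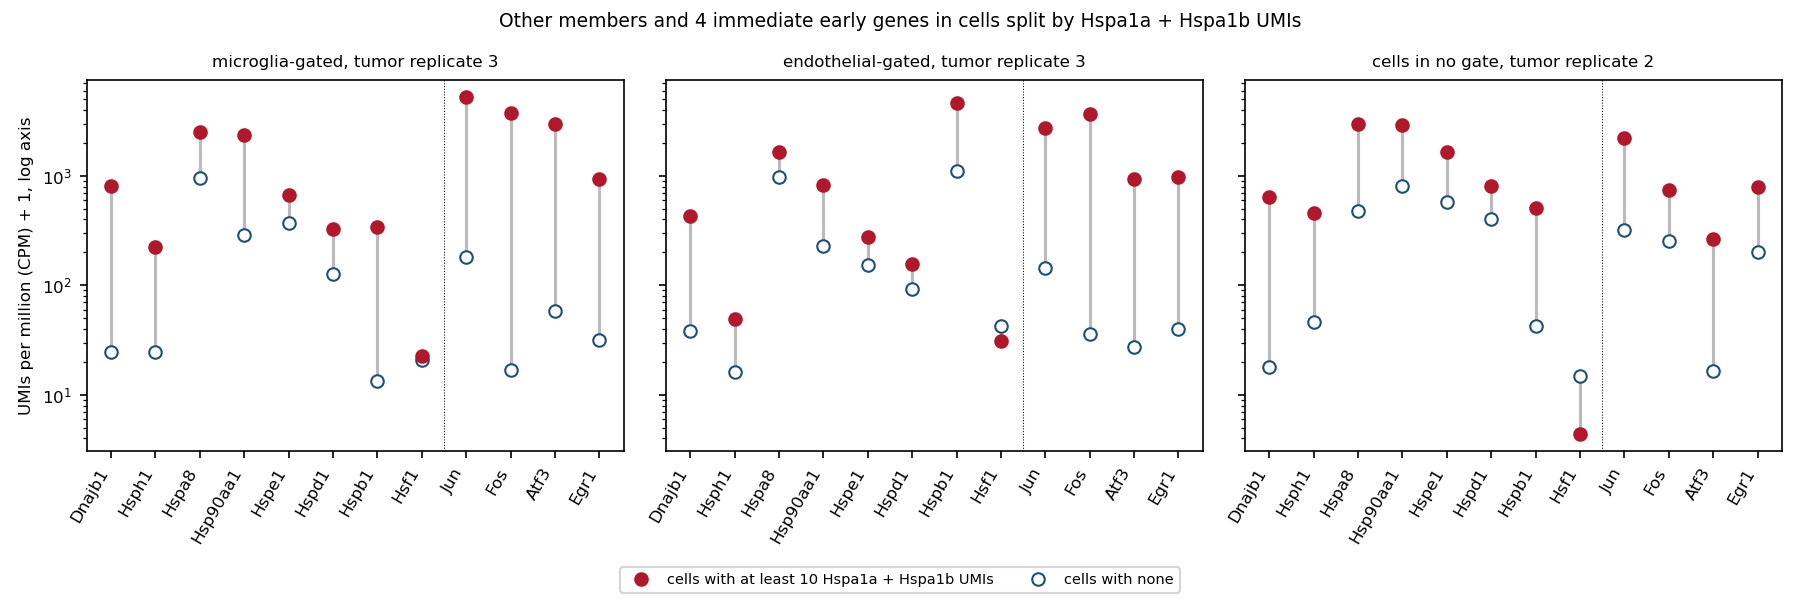
CPM plus 1 on a log axis of the 8 other members and 4 immediate early genes, in cells with at least 10 Hspa1a and Hspa1b UMIs (filled red) and cells with none (open blue), for 3 sets of cells from tumor replicates 3 and 2. The filled point lies far above the open one for Dnajb1, at 813 against 23.4 CPM in the microglia gate, and beside it for Hsf1 there, at 21.5 against 19.7 CPM.

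The same members led in other cells. In the 17 high endothelial-gated cells of tumor replicate 3, set against 132 with no UMI, Dnajb1 was 11.5-fold higher (427 against 37.0 CPM), Hspb1 4.16-fold (4617 against 1109 CPM) and Hsp90aa1 3.61-fold, with Fos 106-fold and Jun 19.1-fold higher. The 4 endothelial markers read there summed to 14760 CPM in the high cells and 16948 CPM in the others. In tumor replicate 2 the 45 high cells without a gate held 646 CPM of Dnajb1 against 16.9 CPM, 38.2-fold higher, with Hspb1 12.1-fold, Hsph1 10.2-fold and Hspa8 6.35-fold higher. Jun was 6.97-fold and Fos 2.93-fold higher there, far less than in replicate 3. In tumor replicate 4 the 29 high cells without a gate differed less, by 13.8-fold in Hspb1, 6.82-fold in Dnajb1 and 1.55-fold in both Hspa8 and Hsp90aa1. Of the 4 endothelial markers 3 were higher there, and the 4 summed to 247 CPM against 72.5 CPM in the cells with no UMI.

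Over the 268 microglia-gated cells of tumor replicate 3, which share a library and differ in depth, the genes whose log level followed that of the pair most closely were Jun (Pearson's r 0.860), Fos (0.851), Klf6 (0.747), Atf3 (0.746) and Ccl3 (0.742). Among the members r was 0.708 for Dnajb1, 0.680 for Hsp90aa1, 0.557 for Hsph1, 0.487 for Hspa8, 0.420 for Hspd1 and 0.342 for Hspe1.

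Levels of the other 8 members over all kept cells were compared between tumors and controls next. The group split: 4 of the 8 were higher in tumors and 2 lower, where 32.4% of 17607 genes tested were higher and 29.4% lower, so the share of members called lay near that of all genes. Hspb1 differed most. It was at 7.18, 7.46, 9.78 and 7.46 CPM in controls and at 107, 107, 292, 66.8 and 33.5 CPM in tumors, every tumor above every control, and rose by 4.10 ± 0.54 on the log2 scale (SE; adjusted p = 3.2e-04, edgeR). Without tumor replicate 3 the rise was 3.61 (adjusted p = 3.1e-04, edgeR). The mitochondrial chaperonin genes rose together. Hspd1 was at 150, 145, 132 and 141 CPM in controls and 149, 340, 203, 419 and 430 CPM in tumors (log2 1.44 ± 0.40, adjusted p = 0.011; 1.61 and adjusted p = 0.0064 without tumor replicate 3, edgeR). Hspe1 was at 214, 194, 170 and 179 CPM and at 163, 525, 365, 440 and 425 CPM (log2 1.33 ± 0.37, adjusted p = 0.012; 1.42 and adjusted p = 0.014 without it, edgeR). Tumor replicate 1 stayed within the controls' range for Hspd1 and below it for Hspe1. Dnajb1 rose by 1.51 ± 0.52 (adjusted p = 0.028, edgeR), and by 0.91 ± 0.34 without tumor replicate 3 (adjusted p = 0.042), from 15.6 to 22.2 CPM in controls to 16.7 to 135 CPM in tumors. Hsph1 fell by 0.78 on the log2 scale (SE 0.15, adjusted p = 0.0020, edgeR), from 166, 156, 123 and 141 CPM to 90.7, 64.1, 92.4, 51.8 and 66.5 CPM, and by 0.81 without tumor replicate 3 (adjusted p = 0.0029, edgeR). Hsf1 fell by 0.59 (SE 0.18, adjusted p = 0.019, edgeR), from 36.1 to 41.7 CPM in controls to 13.2 to 30.6 CPM, and by 0.60 without tumor replicate 3 (adjusted p = 0.026, edgeR). The call on Dnajb1 was lost on leaving out any 1 control (log2 1.43 to 1.56) and that on Hsf1 on leaving out control replicate 1 or 3 (-0.57 and -0.55). Hspa8, at 795 to 946 and 531 to 1197 CPM, and Hsp90aa1, at 849 to 1085 and 593 to 883 CPM, did not pass the test. These sums mix cell types that differ in number between the groups: endothelial-gated cells, in which Hspb1 was high, numbered 104 to 177 in a tumor and 23 to 29 in a control.

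Within the microglia gate the exchange factor and the inducible HSP90 were low in 4 of the 5 tumors. Of the 8 members 7 passed the filter on low counts, of which 1 was higher and 1 lower, where 19.8% of 8659 genes were higher and 23.6% lower; Hspb1 was among those left out, at 0 to 10.9 CPM in controls and 5.65 to 146 CPM in tumors. Hsph1 was at 166, 186, 106 and 163 CPM in controls and at 41.2, 26.4, 107, 12.2 and 21.0 CPM in tumors, and fell by 1.53 (SE 0.46, adjusted p = 0.017, edgeR). Tumor replicate 3 alone reached the controls, and without it the fall was 2.15 (SE 0.29, adjusted p = 1.1e-04, edgeR), while leaving out control replicate 2 ended the call at a change of -1.43. Hsp90aa1 had the same shape, at 1194, 1058, 939 and 1007 CPM in controls and 335, 359, 1157, 228 and 355 CPM in tumors, and did not pass the test with all mice (log2 change -0.73, adjusted p = 0.13, edgeR) but did without tumor replicate 3 (log2 change -1.17 ± 0.20, adjusted p = 5.0e-04, edgeR). Hspe1 rose, from 215, 233, 176 and 229 CPM to 236, 303, 484, 376 and 324 CPM (log2 1.11 ± 0.24, adjusted p = 0.0025; 1.11 and adjusted p = 0.0018 without tumor replicate 3, edgeR). Hspd1, its partner, was at 167 to 212 and 99.1 to 205 CPM and did not pass with free RNA left in. The content of the gate moved with the groups: the 12 microglia markers summed to 15870 to 21080 CPM in controls and 32980 to 43720 CPM in tumors, and the 12 macrophage markers to 1902 to 4739 and 11700 to 59440 CPM. The part of that shift in these differences was not tested. With tumor replicate 3 left out, 23.9% of 8099 genes were higher and 22.9% lower.

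The falls run beside the free RNA of the control suspensions. The smallest barcodes of the controls held 202 to 263 CPM of Hsph1 and 1584 to 1736 CPM of Hsp90aa1. These lay above the same mouse's microglia-gated, endothelial-gated and astrocyte-gated cells. The smallest barcodes of the tumors held 44.2 to 153 and 386 to 783 CPM. With the estimated free RNA subtracted from each mouse's sum, nothing was left of Hsp90aa1 in any control in the microglia, endothelial and astrocyte gates, while the tumors' microglia-gated cells kept 176, 291, 1200, 189 and 209 CPM. The same held for Hspa8 in astrocytes and for Hspe1 in microglia and astrocytes, and Hspa8 was at 0 in 3 of the 4 controls in microglia and in endothelial cells, as was Hspe1 in endothelial cells. A control at 0 leaves no room for a tumor to lie lower, so the groups could not be compared for these genes after the subtraction. Remainders below 0 were set to 0. In endothelial-gated cells of control replicate 1 Hsph1 was at 42.1 CPM, against 263 CPM in the smallest barcodes at an estimated share of 76.5%. The estimated share can thus be too high for a gene. Hspd1 kept 137.4, 31.2, 78.8 and 24.7 CPM in the microglia-gated cells of the controls and 81.6, 125, 208, 158 and 136.6 CPM in the tumors'. It was then called higher in tumors (log2 1.89 ± 0.47, adjusted p = 0.0084, edgeR), though control replicate 1 lay above tumor replicates 1, 2 and 5. The remainders of control replicates 2 and 4 came from 198 and 167 CPM, so this call leans on the size of the subtraction. With free RNA left in, the change of Hspd1 was 0.17 there (adjusted p = 0.59, edgeR). In endothelial cells its controls were left at 0, 105.5, 2.68 and 0 CPM and its tumors at 91.2, 81.6, 108, 190 and 181 CPM. The change of 2.50 there (adjusted p = 0.028, edgeR) rests on controls at or near 0, so no direction is read from it. With free RNA left in it was 0.06 (adjusted p = 0.90, edgeR). Hsph1 was too low to be tested after subtraction. It was left at 0, 0, 0 and 33.5 CPM in microglia-gated cells of controls and at 0 to 109 CPM in those of tumors, highest in replicate 3, at 0 in every control and 0 to 33.2 CPM in tumors in endothelial cells, and at 0 to 5.66 and 0 to 36.9 CPM in astrocytes. The part of free RNA in the differences between tumors and controls was not tested.

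**Figure D4:**
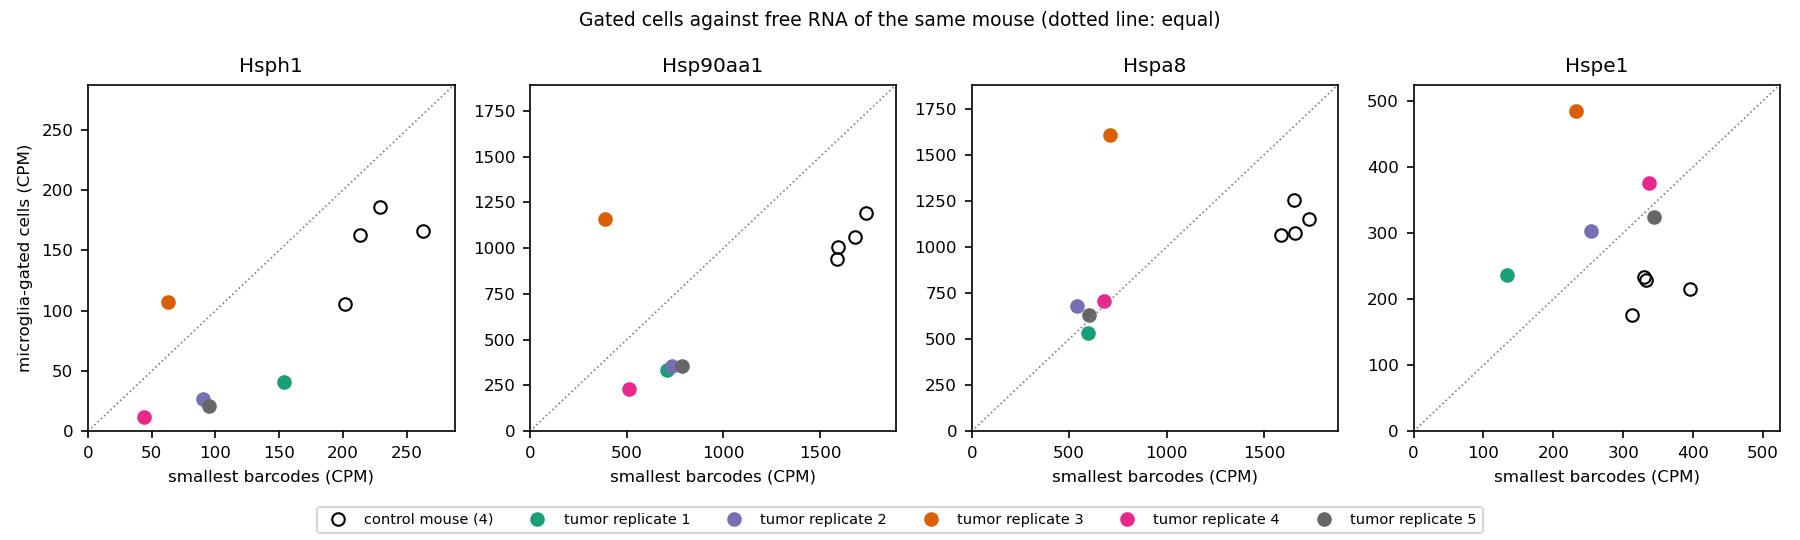
CPM in microglia-gated cells (y axis) against CPM in the smallest barcodes, which stand for free RNA (x axis), for Hsph1, Hsp90aa1, Hspa8 and Hspe1, 1 point per mouse, with a dotted line where the 2 are equal. All 4 controls lie below the line in each panel, as at 1194 against 1736 CPM of Hsp90aa1 in control replicate 1.

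Endothelial-gated cells held more Hspb1 in tumors than in controls. It was at 253, 267, 419 and 307 CPM in controls and at 879, 778, 1810, 1128 and 372 CPM in tumors (log2 1.76 ± 0.39, adjusted p = 0.0055, edgeR), and tumor replicate 5 alone lay within the control range. Without tumor replicate 3 the rise was 1.41 ± 0.33 (adjusted p = 0.0060, edgeR), and with free RNA subtracted it was 1.16 ± 0.47 and did not pass (adjusted p = 0.082, edgeR). Hsph1 fell by 1.34 (SE 0.37, adjusted p = 0.019, edgeR), from 42.1, 68.8, 105 and 121 CPM to 53.8, 22.9, 24.8, 34.7 and 26.3 CPM, with tumor replicate 1 above the lowest control, and its call was lost on leaving out control replicate 3 or 4 (-1.16 and -1.10). Its change was -1.29 without tumor replicate 3 (adjusted p = 0.020, edgeR). Hsp90aa1 fell by 1.10 (SE 0.22, adjusted p = 0.0033, edgeR), from 1122, 994, 734 and 881 CPM to 299, 421, 372, 452 and 461 CPM, and the groups did not overlap. Without tumor replicate 3 the fall was 1.10 as well (adjusted p = 0.0028, edgeR). The 8 members passed the filter, with 1 higher and 2 lower, where 13.1% of 7000 genes were higher and 13.5% lower (16.4% and 17.4% of 4947 without tumor replicate 3). The content of this gate moved with the groups as well, with the 10 endothelial markers at a summed 7459 to 10450 CPM in controls and 11480 to 24240 CPM in tumors, and the 8 mural markers at 1802 to 2856 and 33.5 to 2070 CPM, and the part of this in the changes was not tested. Control values rest on 23 to 29 cells a mouse, and the estimated free-RNA share there was 52.3 to 89.3%, against 8.08 to 27.9% in tumors.

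In astrocyte-gated cells 5 of the 8 members passed the filter and 3 were lower, where 13.2% of 5773 genes were higher and 14% lower. Hsph1 was at 190, 128, 123 and 156 CPM in controls and 50.3, 39.0, 43.9, 40.9 and 54.8 CPM in tumors, and fell by 1.59 (SE 0.24, adjusted p = 7.8e-04, edgeR), with every tumor below every control, and by 1.54 without tumor replicate 3 (adjusted p = 0.0014, edgeR). Hspa8 fell by 0.77 (SE 0.26, adjusted p = 0.042, edgeR), from 914 to 1120 CPM to 392 to 815 CPM, and Hsp90aa1 fell by 0.79 (SE 0.26, adjusted p = 0.034, edgeR), from 917 to 1080 CPM to 336 to 644 CPM. Both of these calls were near the threshold: Hspa8 lost it on leaving out any control or tumor replicate 1, 2 or 5 (-0.79 to -0.63), and Hsp90aa1 on leaving out any control or tumor replicate 5 (-0.81 to -0.73). With tumor replicate 3 left out they stood at -0.75 (adjusted p = 0.040, edgeR) and -0.63 (adjusted p = 0.026, edgeR). Hspe1 did not pass with all mice (log2 0.73, adjusted p = 0.074, edgeR) and did without tumor replicate 3 (log2 0.85 ± 0.26, adjusted p = 0.025, edgeR), at 160 to 195 CPM in controls and 173, 351, 207, 371 and 328 CPM in tumors, and in that fit 17% of 5069 genes were higher and 17% lower. The estimated free-RNA share was 59.8 to 91.3% of the controls' astrocyte sums and 25.1 to 70.6% of the tumors'. The content of this gate moved with the groups too. The 10 astrocyte markers summed to 7078 to 9303 CPM in controls and 6474 to 15800 CPM in tumors. The 12 macrophage markers summed to 6377 to 9242 and 20520 to 29030 CPM, and the 11 neuronal ones to 4815 to 7460 and 468 to 2103 CPM. The part of this in the changes was not tested.

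Within the 5 tumors the gates were compared mouse by mouse, which sets aside the free RNA of the controls. Neural-progenitor-gated cells exceeded microglia-gated cells in the mitochondrial chaperonin gene Hspd1 and in Hsp90aa1. Hspd1 was at 434, 435, 342, 452 and 509 CPM against 99.1, 137, 205, 174 and 190 CPM, higher in 5 of 5 tumors (log2 0.99 ± 0.20, adjusted p = 0.0022; 1.19 and adjusted p = 3.1e-04 without tumor replicate 3, edgeR with mouse as a block). Hsp90aa1 was at 1274, 980, 1000.2, 874 and 893 CPM against 335, 359, 1157, 228 and 355 CPM, higher in 4 of 5 (log2 0.84 ± 0.28, adjusted p = 0.031; 1.22 and adjusted p = 1.1e-04 without tumor replicate 3, edgeR), a call that was lost on leaving out any other tumor (0.68 to 0.82). Hsph1 did not pass with all tumors (log2 0.75, adjusted p = 0.069, edgeR) and did without tumor replicate 3 (log2 1.16 ± 0.26, adjusted p = 0.0034, edgeR). Of the 8 members 2 were higher and 0 lower, where 25.8% of 10564 genes were higher and 25.9% lower. Without tumor replicate 3 it was 3 and 0, where 25.1% of 10822 were higher and 23.5% lower.

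Endothelial-gated cells exceeded microglia-gated cells in Hspb1 in 5 of 5 tumors, by 5.13 ± 0.38 on the log2 scale (adjusted p = 1.3e-06, edgeR with mouse as a block) and by 5.77 ± 0.21 without tumor replicate 3 (adjusted p = 4.9e-10, edgeR), where 20% of 8822 genes were higher and 21.9% lower, and 18.9% and 19.7% of 8829 without that tumor. Over the 8 gates with enough cells in at least 4 tumors, the tumor median of Hspb1 was 879 CPM in endothelial cells and 36.0 CPM in the next gate, the oligodendrocyte precursors, and mural-gated cells, the contractile cells of the vessel wall, held 569, 1012 and 367 CPM in the 3 tumors with enough of them, and 148 and 73.0 CPM in the 13 and 16 such cells of tumor replicates 1 and 5. Hspe1 was lower in endothelial than in microglia-gated cells by 1.02 (log2 change -1.02 ± 0.17, adjusted p = 5.5e-04; -0.85 and adjusted p = 9.6e-04 without tumor replicate 3, edgeR), at 161, 163, 187, 279 and 247 CPM against 236, 303, 484, 376 and 324 CPM, lower in 5 of 5 tumors. Over all tumors the change between these gates was 0.50 ± 0.64 for Hspa1a and -0.18 for Hspa1b. Leaving out tumor replicate 3, it was 1.52 ± 0.31 for Hspa1a (adjusted p = 0.0017, edgeR), and Hspa1b did not pass (log2 1.13 ± 0.43, adjusted p = 0.058, edgeR). That tumor held 2688 CPM of Hspa1a in microglia-gated and 740 CPM in endothelial-gated cells. It was set apart by the values compared here, so this fit shows no difference between the gates. Leaving out tumor replicate 4, and keeping replicate 3, put Hspa1a at -0.19. In ependymal-gated cells, which were few, Hsp90aa1 was at 5197 CPM in 24 cells of tumor replicate 2, at 1846, 1348 and 2975 CPM in 14, 6 and 11 cells of tumor replicates 1, 4 and 5, and at 5008 and 2090 CPM in 5 and 8 cells of control replicates 2 and 3.

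**Figure D5:**
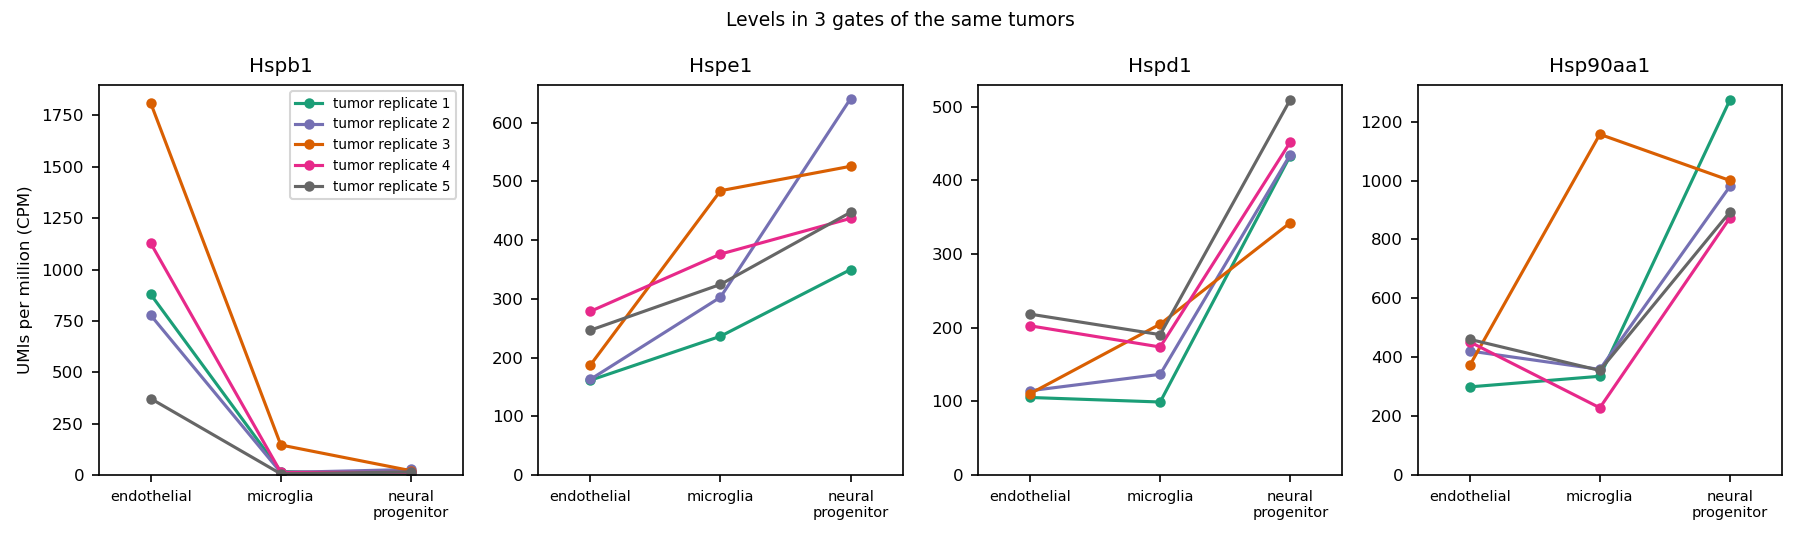
CPM of Hspb1, Hspe1, Hspd1 and Hsp90aa1 in endothelial-gated, microglia-gated and neural-progenitor-gated cells, 1 line per tumor. Hspb1 is high in the endothelial cells, at 372 to 1810 CPM, and Hspd1 in the neural progenitors, at 342 to 509 CPM.

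Other genes of protein folding, and immediate early genes, were read from 6 lists with 71 genes, as counts beside those of all genes above. Over all kept cells 13 of 14 chaperones of the endoplasmic reticulum were higher in tumors and none lower (median log2 change 1.86, against 0.04 over all genes), among them Manf, a secreted stress factor, at 2.67 ± 0.40 (adjusted p = 6.0e-04, edgeR), and Dnajc3, a partner of the reticulum's HSP70, at 1.83 ± 0.22 (adjusted p = 2.5e-04, edgeR). Of the 8 subunits of TRiC, the cytosolic chaperonin that folds actin and tubulin, 7 were higher (median 1.10), as were 11 of 24 cytosolic co-chaperones with 4 lower (median 0.66) and 4 of 8 mitochondrial genes (median 0.47). Serpinh1, the collagen chaperone, rose by 4.60 ± 0.63 and Hspb8, a small heat shock protein, by 1.87 ± 0.31, while Hspa4l, an HSP110 relative of Hsph1, fell by 0.94. Among 7 regulators of heat shock factors and other HSP70 genes 4 were higher and 2 lower, the lower ones Hspa12a, which fell by 2.57, and Hspa1l. Immediate early genes were higher in 8 of 10 (median 3.42), with Jun at 3.48 ± 0.47 (adjusted p = 3.6e-04, edgeR). With tumor replicate 3 left out these counts were the same for each list except the co-chaperones, with 10 higher and 4 lower.

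By gate, the chaperones of the endoplasmic reticulum were again higher in tumors with none lower: 10 of 14 in microglia (median 0.86, against -0.03 over all genes), 7 of 13 in endothelial cells (median 0.99) and 6 of 12 in astrocytes (median 0.97). These counts were 10 of 14, 7 of 11 and 6 of 11 without tumor replicate 3. In microglia 0 of 19 co-chaperones were higher and 3 lower, among them Cryab, a small heat shock protein, which fell by 2.06 (SE 0.24, adjusted p = 8.0e-05, edgeR), and Hspa4l, which fell by 2.20. With tumor replicate 3 left out it was 2 higher and 4 lower of 19, and the median moved from -0.09 to 0.05. The 9 oligodendrocyte markers in this gate summed to 1805 to 2469 CPM in controls and 112 to 488 CPM in tumors. The part of free RNA in the falls of Cryab and Hspa4l was not tested. The immediate early genes were higher in 7 of 10 in microglia (median 2.30), 7 of 9 in endothelial cells (median 2.31) and 2 of 4 in astrocytes, and without tumor replicate 3 in 6 of 9, 4 of 5 and 2 of 4. In microglia-gated cells the immediate early genes stood highest in the mouse where the HSP70 pair did, tumor replicate 3, at a summed 7392 CPM. Replicates 1, 2, 4 and 5 held 2817, 2170, 2831 and 1033 CPM. Replicate 3 also led in unresolved myeloid cells (9253 CPM) and, barely, over all kept cells (3185 CPM, against 3110 CPM in replicate 4). Replicate 4 held more than replicate 3 in endothelial (3669 against 3488 CPM), neural progenitor (4256 against 1973 CPM) and astrocyte gates (2576 against 213 CPM). The part of the immediate early genes in the levels of Hspa1a and Hspa1b was not tested. Within tumors, 10 of 22 co-chaperones were higher in neural progenitors than in microglia and 1 was lower, with Fkbp4, an HSP90 partner of steroid receptors, at 1.33 ± 0.15 (adjusted p = 6.6e-05, edgeR), whereas 7 chaperones of the endoplasmic reticulum were lower there, Sdf2l1 among them at -2.43 ± 0.27. Without tumor replicate 3 it was 11 and 1 co-chaperones, and 6 lower chaperones of the endoplasmic reticulum. Between endothelial and microglia-gated cells 7 such genes were also lower, with Sdf2l1 at -3.05 ± 0.25 (adjusted p = 2.9e-06, edgeR), and 7 were lower without tumor replicate 3.

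The genes whose pattern was most like that of Hspa1a were sought over 78 pairs of mouse and gate, which share libraries and free RNA, by Pearson's r of log2 CPM, as a description. Hspa1b came first, at 0.925, and Dnajb1 next, at 0.748, then Atf3 (0.720), Gm11808 (0.691), Fos (0.683), Fosb (0.679), Arpc4 (0.678), Jun (0.674) and H1f0 (0.673). Of the other members Hspb1 was at 0.445, Hspe1 at 0.427, Hspa8 at 0.301 and Hspd1 at 0.108, while Hsf1 (-0.04), Hsph1 (-0.20) and Hsp90aa1 (-0.20) did not follow it. Over the 69 pairs without tumor replicate 3, Hspa1b stayed first at 0.842 and Dnajb1 was at 0.554, behind Cxcl2 (0.775), a neutrophil attractant, and Tk1 (0.745), a gene of DNA synthesis.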

How the data were processed

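The authors deposited raw UMI counts per gene and barcode for each mouse, made with Cell Ranger on mm10 per the labels. The version in the matrix header and that in the methods differ, and the smallest deposited barcode of a library held 468 to 517 UMIs. From these counts, the 10000 barcodes with most UMIs in each library (all 9001 of tumor replicate 3) were considered, those with 200 to 6000 genes were kept, the component of higher mitochondrial share in a 2-component Gaussian mixture was removed (scikit-learn 1.9.0), and the highest doublet scores of Scrublet (in scanpy 1.11.5) were removed at 0.8% per 1000 cells. The 3000 smallest barcodes of a library gave a profile of free RNA, and 0 of them were kept as cells. A marker counted as detected when its UMIs exceeded that profile's Poisson expectation (p of 0.05), and a gate needed 3 detected markers and a share 1.5 times that of the next list, over 138 markers in 15 lists. Myeloid cells with 2 of 6 core microglia markers were called microglia-gated, those with none and 3 macrophage markers macrophage-gated, and the rest unresolved. No cell type annotation was used.

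Counts were summed per mouse and gate (at least 20 cells) and tested over all genes with edgeR 4.0.16 (glmQLFit and glmQLFTest, TMM, filterByExpr, Benjamini-Hochberg at 0.05), tumor against control without a block, and between gates of the same tumors with mouse as a block. CPM is a count divided by the summed UMIs of its mouse and gate and scaled to 1000000, tested for single genes after adding 10 and taking log2. DESeq2 1.42.0, limma 3.58.1 and other settings were alternatives. On simulated counts the fits recovered 85.1 to 100% of genes changed by log2 2 and 17.4 to 37.5% of those changed by log2 1, over the 6 comparisons. The simulation gave every gene the same dispersion, changed few genes and held no shift of cell types, so these shares need not hold for the data. The gate sums tested with edgeR rest on as few as 23 cells in controls and 45 in tumors. The members, the gene lists and the gates were chosen with earlier results of these data known. Text names the 10 members in every comparison and, of each further list, at most the 2 called genes of smallest p in each direction, plus genes of the split cells, chosen after their values were seen. Some genes that these rules name are not reported here. The last control's barcode list was shorter than its matrix, so its columns were read by number, without barcode names. Labels name separate mice. Replicate numbers did not pair tumors with controls: correlations of same-numbered deviations were -0.09 to 0.13. Sequences are RefSeq's on GRCm38.p6.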

Additional observations from a re-analysis of the deposited data

Results flagged for a closer look

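Each value here lay farther from its own group than Dixon's 95% limit allows, and chance marks about 1 in 20 groups. Of 90 groups of mice tested, 6 were marked, and the members are not independent of each other. Tumor replicate 3 was left out of these groups, because its values had chosen the genes.

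Tumor replicate 2 was highest for Hspb1 in astrocyte-gated cells, at 306 CPM (next of the 4 tumors 40.8).

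Among controls the marked values were small. Over all kept cells control replicate 3 was lowest for Dnajb1, at 15.6 CPM (next control 21.2), and highest for Hspb1, at 9.78 CPM (7.46). In microglia-gated cells control replicate 1 was lowest for Hspa1a, at 6.16 CPM (13.6). Hspa1b was at 8.07 CPM in endothelial-gated cells of control replicate 3 and at 4.75 CPM in astrocyte-gated cells of control replicate 2, with no UMI in the other controls.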

How the results depend on the processing

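Counts of the 8 members other than Hspa1a and Hspa1b called in each comparison stayed within 1.5 times their value 111 times and left that range 23 times under other settings, and did so 74 and 18 times with 1 mouse left out. With the replicate number as a block, 1 was higher and 1 lower over all kept cells and 1 lower in astrocytes. It moved no other count between tumors and controls by over 1.5 times, and the numbers do not pair the mice. Without the block, 1 was higher in neural progenitors than in microglia. In the microglia gate, 3 were higher with no filter on low counts, and 2 lower with limma voom or with scaling by library size only, which moved the median of all genes to -0.45. With no filter, 2 were higher in endothelial cells, 1 higher and 1 lower in astrocytes, and 1 lower in neural progenitors. Cells of at most 10% mitochondrial share, or 1 more marker, left 1 lower in astrocytes. Among neural progenitors 4 were higher by library size only (median of all genes 0.50) and 1 with at least 50 cells a mouse. Free RNA subtracted (chosen after seeing the data) gave 4 of 6 tested members higher in microglia, 4 of 7 in endothelial cells and 3 of 4 in astrocytes. In each of these gates 0 were lower. Calls over all genes leaned the same way. In microglia 1525 of 6236 genes were higher and 719 lower, in endothelial cells 1016 and 281 of 5299, and in astrocytes 830 and 63 of 4203. The subtraction put the log2 change of Hsp90aa1 at 11.22, 9.85 and 9.72 in these gates. Hspa8 stood at 9.77 in astrocytes, and Hspe1 at 11.08 in microglia and 9.04 in astrocytes. These values are set by the count added to controls at 0, and no direction can be read from them. Hspa8 (6.98 in microglia, 5.18 in endothelial cells) and Hspe1 (3.33 in endothelial cells) had 3 of 4 controls at 0.

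Leaving out each mouse in turn, 1 to 2 were lower over all kept cells. In the microglia gate 1 to 2 were higher and 0 to 2 lower (0 without control replicate 2). In endothelial cells 1 to 2 were lower, and in astrocytes 0 to 1 were higher and 1 to 3 lower. In neural progenitors 1 to 3 were higher. The log2 change of Hspa1b in microglia ran from -0.18, without tumor replicate 3, to 5.54. That of Hspa1a between endothelial and microglia-gated cells ran from -0.19 to 1.52, and it was -0.13 with limma voom and -1.55 without the replicate block. At a mitochondrial share of at most 10%, tumor replicate 3 held 2537 CPM of Hspa1a and 2692 CPM of Hspa1b in the microglia gate. Causes of these changes were not tested. Too few mice were left for endothelial fits at that share or 50 cells, and for astrocyte fits at 50 cells. Endothelial-gated cells were few in the controls, at 23 to 29 a mouse.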
